A study of Homo sapiens with 28 samples.

Results

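The LSm ring genes are LSM1 to LSM8, the 8 genes that encode the ring-forming Sm-like proteins. They were chosen by Ensembl identifier, because LSM5 was low in cells carrying hairpin 64 against MBNL1. They are 8 of 22391 genes in the expression file, and 6 of 100814 rows of the splicing file belong to 3 of them: 3 rows to LSM8, 2 to LSM1 and 1 to LSM7. The level of LSM5 with hairpin 64 therefore made the choice and is given as a description with no test. The other 7 genes, LSM5 with hairpin 65 and the splicing rows were not used by it.

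RNA-seq of total RNA was available for 28 libraries of 2 acute myeloid leukemia cell lines, MOLM13 with the MLL-AF9 fusion and MV4;11 with the MLL-AF4 fusion. Cells received a lentiviral short hairpin RNA and were selected with puromycin, so control cells also carried a virus and a resistance gene. MOLM13 cells carried hairpin 64 (shMBNL1-64, 3 libraries) or a non-targeting hairpin (shNT, 3 libraries) and were taken at day 4, a day that the study's text gives and the labels do not. In further MOLM13 cells, hairpin 65 (shMBNL1-65) was present in 4 libraries and shNT, in a second set, in 3. MV4;11 cells carried hairpin 64, hairpin 65 or shNT in 3 libraries each, with the day not given in the sources used here. MOLM13 cells kept in culture for 12 days carried hairpin 64 or shNT in 3 libraries each, and were sequenced on another instrument than the rest. Whether libraries of a group came from separate cultures is stated for the 12-day cells only, so elsewhere p-values measure a spread that may be technical. Each line is a single established line.

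LSm proteins assemble into rings that hold the end of an RNA. LSM2 to LSM8 form the nuclear ring, which binds the uridine-rich 3' end of U6 small nuclear RNA and takes part in building the spliceosome. LSM1 to LSM7 form the cytoplasmic ring, which binds the ends of messenger RNAs with shortened tails and helps to start their decapping and decay. LSM1 and LSM8 thus set the location of the ring, and LSM2 to LSM7 are shared by both.

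Over the 28 libraries, 8 of 8 listed markers of myeloid cells had a median of at least 1 RPKM (reads per kilobase of gene, scaled to the reads of the library), against 1 of 9 genes of other cell types. Of the 8, MPO alone went below that in any library (0.8291 to 126 RPKM). Relative depth, read from the value that 1 read adds to a gene listed at the floor, spanned 3.58-fold. The third library of each day 4 group had the lowest depth and the lowest mean correlation with its own group (0.925 for shNT and 0.921 for hairpin 64). In MV4;11, the third shNT library had the lowest correlation of that line (0.967). In bulk RNA, fewer cells of a kind and less RNA per cell cannot be told apart.

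MBNL1, the RNA-binding splicing regulator that both hairpins target, checked the labels. With hairpin 64 its mean was 14.4% of shNT in MOLM13 at day 4, 16.6% in MV4;11 and 16.7% in MOLM13 at day 12. Hairpin 65 left more, 67.3% in MOLM13 and 53.3% in MV4;11.

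LSM5 lies on chromosome 7 from 32524950 to 32534895 on the minus strand (GRCh37). It is a shared subunit of both rings. On the other strand begins AVL9, a gene of the late secretory pathway, with 142 bases between the annotated genes. This segment at chr7:32534896-32535037 is shown, read in the direction of LSM5, because both annotated genes begin at its ends. RefSeq also lists a start further into LSM5. The capitals mark the GC box, GGGCGG searched on both strands:

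LSM5 to AVL9: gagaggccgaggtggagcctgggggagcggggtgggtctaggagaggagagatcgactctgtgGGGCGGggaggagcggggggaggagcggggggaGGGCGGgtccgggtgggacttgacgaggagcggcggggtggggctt

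It held 2 such boxes and its GC content was 73.9%. The ETS core (CCGGAA), the CCAAT box and the TATA box (TATAAA) had no match on either strand of these 142 bases. The 250-base windows upstream of the LSM5 starts in RefSeq (GRCh38.p14), which are not printed, differed from each other. That at chr7:32495284-32495533, which contains the segment above, held 3 GC boxes and 1 ETS core. That at chr7:32490381-32490630 lies further into LSM5 and held 1 CCAAT box and no GC box. The 250 bases upstream of the start of LSM2 (RefSeq, GRCh38.p14, chr6:31806967-31807216, minus strand) are shown because LSM2 moved beside LSM5 in what follows, with any match to these motifs in capitals:

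LSM2: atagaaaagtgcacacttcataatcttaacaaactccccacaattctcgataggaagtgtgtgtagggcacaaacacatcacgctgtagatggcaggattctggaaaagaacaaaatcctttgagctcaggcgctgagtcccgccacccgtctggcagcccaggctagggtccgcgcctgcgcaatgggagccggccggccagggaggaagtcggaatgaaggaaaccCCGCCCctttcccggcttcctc

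This stretch held 1 GC box and none of the other motifs. Of 35116 windows of 250 upstream bases in the reference, 42.6% held a GC box, 14.5% the ETS core, 32.0% the CCAAT box and 10.7% the TATA box.

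In MOLM13 at day 4, LSM5 stood at 38.1, 25.7 and 13.8 RPKM in the shNT libraries. With hairpin 64 it stood at 9.98, 6.20 and 3.49 RPKM. The groups did not overlap, and the libraries of the same number kept their order in both. Within same-numbered libraries, LSM5 was at 26.2%, 24.1% and 25.3% of shNT, a far narrower range than the levels themselves. The log2 difference was -1.81.

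In MV4;11, the shNT libraries held 20.8, 20.3 and 13.7 RPKM of LSM5. Hairpin 64 left 4.84, 4.80 and 4.50 RPKM, which is 25.8% of shNT and a log2 difference of -1.73. Those 3 libraries lay closer together than the controls, of which the third was low. At day 12 in MOLM13, shNT libraries held 21.7, 23.5 and 23.1 RPKM. Hairpin 64 left 12.3, 10.8 and 11.8 RPKM, or 51.2% of shNT (log2 difference -0.91), with no overlap. MBNL1 in these 12-day libraries was between 4.13 and 4.65 RPKM, against 2.94 to 3.80 at day 4. The day, the experiment and the sequencing instrument cannot be told apart here.

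With hairpin 65, whose libraries the choice did not use, LSM5 was also below its controls in all libraries. MOLM13 shNT libraries of the second set held 25.2, 32.1 and 28.8 RPKM. Those with hairpin 65 held 19.0, 22.0, 18.3 and 16.4 RPKM. The log2 difference was -0.58 ± 0.14 (SE, n = 4 against 3; 95% interval -0.89 to -0.26; adjusted p = 0.145 by limma with Benjamini-Hochberg adjustment). A called gene had to differ by 1.5-fold and to pass the threshold of 0.01 before adjustment. LSM5 just missed the fold, and 1.48% of genes were called lower. It was called in 4 of 11 alternative settings, among them a pseudocount of 0.1 and libraries centred on their medians. Of the 7 that left out 1 library, 2 called it. These were without library a of the second shNT set (-0.66) and without hairpin 65 library 2. MV4;11 libraries with hairpin 65 held 10.5, 11.8 and 12.4 RPKM, all below the lowest control. The controls were the same 3 as for hairpin 64, so this comparison was not independent of the choice. LSM5 fell there by 0.60 on the log2 scale (SE 0.17, limma adjusted p = 0.108), as did 1.85% of the genes tested by the same rule. That call held in 3 of 11 alternative settings and, of the 6 that left out 1 library, only in the one without shNT library 3. With 1 library left out the difference lay between -0.79 and -0.50.

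**Figure D1:**
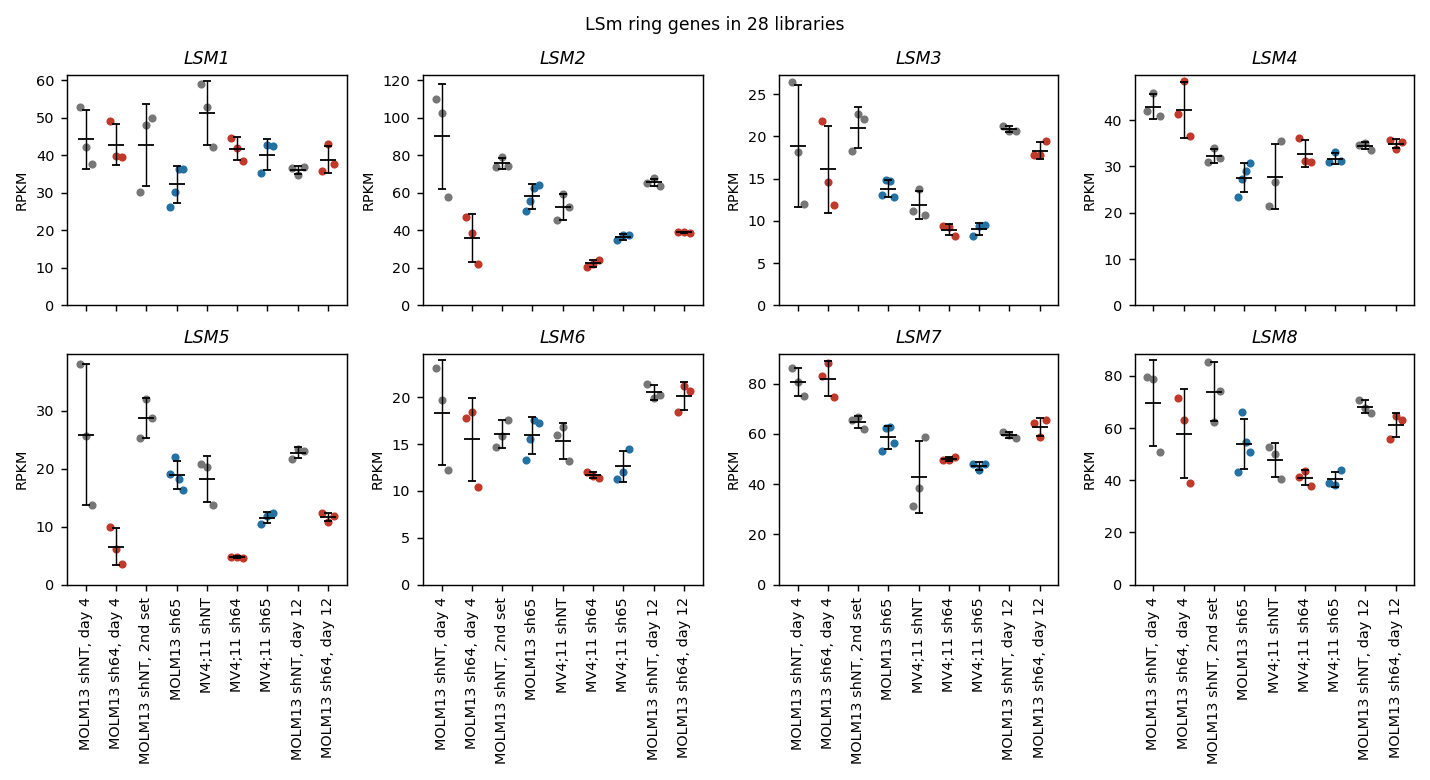
RPKM of the 8 LSm ring genes (one panel each, linear axis from 0) in 28 libraries; points are libraries, bars the group mean and SD, grey shNT, red hairpin 64 and blue hairpin 65. LSM5 and LSM2 sit below their shNT libraries in every knockdown group, while LSM4 and LSM7 overlap theirs in all but 1 of the pairs of groups.

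LSM2 is a shared subunit encoded on chromosome 6 from 31765173 to 31774743 (minus strand). Except with hairpin 65 in MOLM13, it was the ring gene next to LSM5 in how far it moved. In that comparison LSM3 (-0.57) and LSM8 (-0.46) moved further than LSM2 (-0.38). At day 4 the shNT libraries of MOLM13 held 110, 102 and 57.9 RPKM. Hairpin 64 left 47.2, 38.8 and 22.1 RPKM, again without overlap. Same-numbered libraries gave 42.9%, 37.9% and 38.2% of shNT. The log2 difference was -1.31 ± 0.36 (SE, n = 3 against 3; limma adjusted p = 0.307), which missed the threshold. Without library 3 of shNT, or library 1 of hairpin 64, it was called, and over the libraries left out in turn it ran from -1.60 to -1.004. With the replicate number as a block, which the libraries at day 4 allow since same-numbered libraries deviated together (a pairing read from the data, not the labels), it was -1.31 ± 0.07 and passed (adjusted p = 0.00455).

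In MV4;11, LSM2 stood at 45.6, 59.2 and 52.3 RPKM with shNT. Hairpin 64 left 20.6, 22.2 and 24.3 RPKM, so that LSM2 fell by 1.19 on the log2 scale (SE 0.13, limma adjusted p = 0.00743). At day 12 in MOLM13, shNT libraries held 65.2, 67.8 and 63.7 RPKM. Hairpin 64 left 39.1, 39.1 and 38.6 RPKM, and LSM2 fell by 0.74 (SE 0.04, adjusted p = 1.26e-05). Of all genes tested, 2.62% in MV4;11 and 2.25% at day 12 were called lower, and LSM2 was the only one of the 7 other ring genes among them in those comparisons. At day 4, 1.09% of genes were called lower and none of the 7 was. With the block it was 3.28% of genes and LSM2.

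With hairpin 65 LSM2 was lower by less. MOLM13 held 73.6, 79.1 and 74.4 RPKM with shNT. Hairpin 65 left 50.1, 55.6, 62.6 and 64.3 RPKM, a log2 difference of -0.38 ± 0.12 (SE, limma adjusted p = 0.192). MV4;11 with hairpin 65 held 34.8, 37.5 and 37.4 RPKM, a difference of -0.50 ± 0.12 (limma adjusted p = 0.0815). Neither reached 1.5-fold, though LSM2 in MV4;11 did without shNT library 1 (-0.59). In MV4;11, where both hairpins were measured side by side, LSM2 was lower with hairpin 64 than with hairpin 65 by 0.69 on the log2 scale (log2 difference -0.69, SE 0.08, 95% interval -0.87 to -0.51, adjusted p = 0.000749). The contrast called 1.83% of genes lower. In MOLM13 the difference between the hairpins' effects on LSM2 was -0.93 ± 0.37 (adjusted p = 0.507), and with the block -0.93 ± 0.16 (adjusted p = 0.0357). The block called 2.75% of genes lower in that contrast, against 1.42% without it.

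Between lines with hairpin 64, the effect on LSM2 differed by -0.12 (95% interval -1.01 to 0.76), so no difference was detectable, and the interval held large ones in both directions. Between days, the effect differed by 0.58 (95% interval -0.29 to 1.44, limma, not called). These contrasts called 0.308% of genes lower between lines and 0.217% higher between days. For the days, the block gave the same size, just under 1.5-fold, with a limma adjusted p of 0.0304. That block called 85 of 10583 genes higher. It also paired the day 12 libraries by number, though these did not deviate together (r = -0.11, -0.05 and -0.06).

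**Figure D2:**
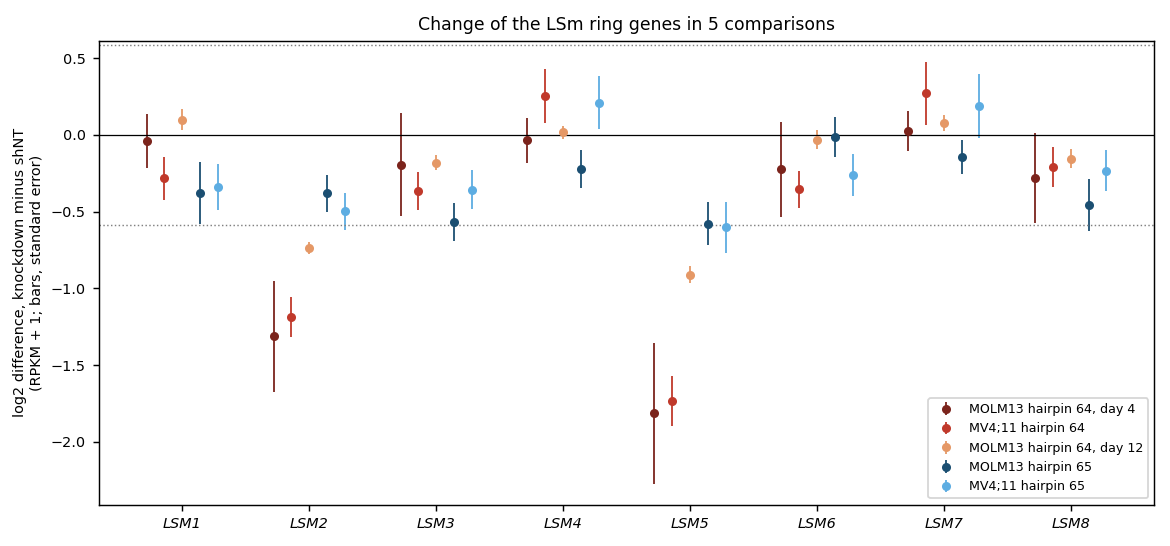
Log2 difference in RPKM + 1 between knockdown and shNT libraries for the 8 LSm ring genes in 5 comparisons; bars are standard errors and dotted lines mark 1.5-fold. LSM5 and LSM2 lie below the lower line with hairpin 64 in all 3 comparisons, and the other 6 genes lie between the lines throughout.

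LSM3, another shared subunit, was lower than shNT in all libraries in 4 of the 5 comparisons. The widest gap was with hairpin 65 in MOLM13, where shNT libraries held 18.3, 22.7 and 22.1 RPKM. Those with hairpin 65 held 13.1, 14.8, 14.7 and 12.8 RPKM, a log2 difference of -0.57 ± 0.12 (SE, limma adjusted p = 0.143) that fell short of 1.5-fold. It was called with a pseudocount of 0.1, with libraries centred on their medians, and without shNT library a or hairpin 65 library 2 or 3 (-0.66 to -0.51 over the libraries left out in turn). At day 12 the difference was small, -0.18 ± 0.05 (adjusted p = 0.0154). In MV4;11 it was -0.37 for hairpin 64 and -0.36 for hairpin 65. At day 4 it was -0.19. Complete separation was common: knockdown libraries all lay below all shNT libraries for 8.24% of genes at day 4, 5.75% in MOLM13 with hairpin 65, 17.5% and 9.89% in MV4;11 with hairpin 64 and 65, and 23.7% at day 12. LSM5 was so separated in all 5, but with hairpin 64 its level made the choice. Of the other ring genes, LSM2 alone was so separated at day 4. With hairpin 65 in MOLM13 these were LSM2, LSM3 and LSM4. In MV4;11 they were LSM2, LSM3 and LSM6 with hairpin 64, and LSM2 and LSM3 with hairpin 65. At day 12 they were LSM2, LSM3 and LSM8.

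LSM6 was called in no comparison. Its libraries with hairpin 64 in MV4;11 held 12.1, 11.6 and 11.4 RPKM against 15.9, 16.8 and 13.1 RPKM, a log2 difference of -0.35 ± 0.12 (limma adjusted p = 0.0875). In MOLM13 its differences were -0.22 at day 4, -0.03 at day 12 and -0.01 with hairpin 65. LSM4 and LSM7, which complete the shared set, were near their controls: LSM4 differed by between -0.22 and 0.25, and LSM7 by between -0.14 and 0.27, over the 5 comparisons, with none called. The third shNT library of MV4;11 was high in both, at 35.4 RPKM for LSM4 against 21.4 and 26.6, and at 58.8 RPKM for LSM7 against 31.2 and 38.3. It was low in LSM5, which is given above. LSM7 and LSM6 each overlap 1 other gene and LSM1 overlaps 2. LSM3, LSM6 and LSM1 have named pseudogenes (4, 1 and 2), so reads of these genes could be shared.

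The subunits that give the ring its place, LSM8 in the nucleus and LSM1 in the cytoplasm, were also called in none of the 5 comparisons, apart from LSM1 with hairpin 65 in MOLM13 when shNT library a was left out (-0.60). LSM8 differences ran from -0.46 ± 0.17 with hairpin 65 in MOLM13 (adjusted p = 0.224) to -0.16 ± 0.06 at day 12 (adjusted p = 0.0672). LSM8 at day 12 held 70.9, 67.8 and 66.0 RPKM with shNT and 55.9, 64.7 and 63.1 RPKM with hairpin 64, without overlap. LSM1 differences ran from -0.38 ± 0.20 with hairpin 65 in MOLM13 to 0.10 ± 0.07 at day 12. Their ratio, LSM8 over LSM1 in RPKM, was 1.89 ± 0.0952 (SD, n = 3) with shNT and 1.58 ± 0.0818 with hairpin 64 at day 12. An exact two-sided permutation test gave p = 0.1, the smallest it can give with 3 against 3, and 0.5 after adjustment over 5 comparisons. MV4;11 ratios lay near 1 in all groups, between 0.896 and 1.10.

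Since LSM2 to LSM7 are shared, LSM5 and LSM2 were set against the mean of LSM3, LSM4, LSM6 and LSM7 in each library. LSM5 over that mean was 0.395 to 0.858 with shNT at day 4 and 0.105 to 0.244 with hairpin 64. In MV4;11 it was 0.465 to 1.05 with shNT, 0.177 to 0.189 with hairpin 64 and 0.424 to 0.480 with hairpin 65, the last overlapping the controls. LSM2 over that mean was 1.77 to 2.48 with shNT in MV4;11, 0.767 to 0.958 with hairpin 64 and 1.41 to 1.501 with hairpin 65. With the lower level LSM5 moved from the sixth of the 8 genes by mean RPKM in each shNT group to the lowest in each group with hairpin 64. With hairpin 65 it was the sixth in MOLM13 and the seventh in MV4;11, where it did not differ from LSM6 beyond their spread (11.5 ± 0.984 and 12.6 ± 1.66 RPKM, SD, n = 3). Among the 12-day shNT libraries, LSM8 (68.2 ± 2.50), LSM2 (65.6 ± 2.05) and LSM7 (59.5 ± 1.18) were highest. LSM1 (36.1 ± 1.20) and LSM4 (34.5 ± 0.740) followed, then LSM5 (22.8 ± 0.911), LSM3 (20.9 ± 0.354) and LSM6 (20.5 ± 0.813, all SD, n = 3).

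**Figure D3:**
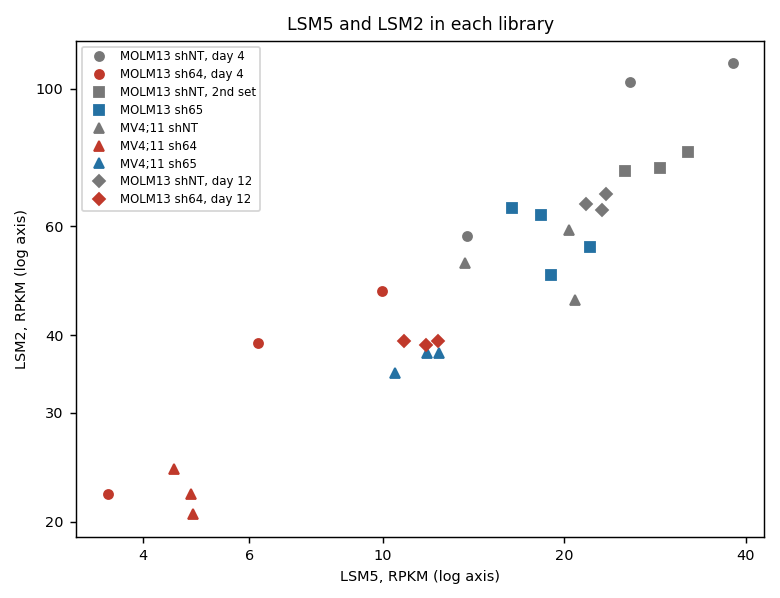
RPKM of LSM5 and LSM2 in each of 28 libraries, both on log axes; colour gives the hairpin and shape the experiment. Libraries with hairpin 64 at day 4 and in MV4;11 lie at the lower left (3.49 to 9.98 RPKM of LSM5), and no shNT library lies below 13.7 RPKM of LSM5.

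Likeness to LSM5 was measured over the 28 libraries as Pearson's r of log2(RPKM + 1), after the mean of the shNT libraries of the same set was taken away, among 6266 other genes with a mean of at least 5 RPKM. These points share controls, hairpins and depth, and r is a description. The nearest were NUP88, a nuclear pore protein (r = 0.970), PPP1CC, a catalytic subunit of protein phosphatase 1 (0.963), LSM2 (0.962), ERO1A, an oxidase of the endoplasmic reticulum (0.959), and CFAP20, a cilia-associated protein (0.946). MBNL1 itself was the 111th with r = 0.827. Of the other ring genes LSM6 (0.665), LSM3 (0.577), LSM8 (0.548) and LSM1 (0.324) followed, and LSM4 (-0.208) and LSM7 (-0.290) ran against it. NUP88, picked by this likeness, was 27.0 ± 3.49 RPKM with shNT in MV4;11, 13.0 ± 0.373 with hairpin 64 and 22.8 ± 1.25 with hairpin 65 (SD, n = 3).

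AVL9, which shares the segment shown above with LSM5, was not lower in any comparison. Its RPKM at day 4 was 3.45 ± 0.490 with shNT and 3.61 ± 0.547 with hairpin 64 (SD, n = 3). At day 12 it was 3.98 ± 0.170 and 5.42 ± 0.291, higher by 0.37 on the log2 scale (SE 0.05, limma adjusted p = 0.00065), under 1.5-fold. PDE1C, the nearest coding gene on the other side, was below the filter on low values.

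Genes that work beside the rings were taken from 6 lists with 58 genes in all, which covered the Sm core of the other spliceosomal particles, proteins of the U4/U6.U5 tri-snRNP, factors that build and recycle U6, partners of LSM1-7 in decapping, U7 and other LSm-domain proteins, and the SMN complex that assembles Sm rings. In 4 of the 5 comparisons with shNT, 0 of the 55 to 57 genes tested were called, where the share of all genes called was 2.42% at day 4 and 5.52% at day 12. For hairpin 65 that share was 3.24% in MOLM13 and 3.63% for MV4;11. With hairpin 64 in MV4;11, where 6.51% of all genes were called, 3 of 56 were, near that share. All 3 were of the SMN complex, and they did not move in 1 direction. GEMIN8 rose by 0.70 (limma adjusted p = 0.0223) at a low level, 1.90 ± 0.246 RPKM with shNT and 3.71 ± 0.388 with hairpin 64 (SD, n = 3). GEMIN5, the subunit that recognises small nuclear RNAs, fell by 0.62 (adjusted p = 0.0369). GEMIN2, which binds the Sm proteins, fell by 0.59 (adjusted p = 0.0356). GEMIN5 held 18.9 ± 3.27 RPKM with shNT, 11.9 ± 0.620 with hairpin 64 and 18.8 ± 1.91 with hairpin 65, and the direct contrast of the hairpins was -0.62 ± 0.09 (adjusted p = 0.00184). With the block GEMIN5 was also called at day 4 (-0.91, adjusted p = 0.0173).

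The median log2 difference was taken over the genes of each list. That of the Sm core was the lowest of the 6 in each of the 5 comparisons. It was -0.28 at day 4, -0.24 for MOLM13 carrying hairpin 65, -0.20 and -0.14 for MV4;11 carrying hairpin 64 and 65, and -0.06 at day 12. The medians over all genes were -0.0014, 0.05, 0.01, 0.06 and 0.04 in the same order. The list medians of tri-snRNP proteins ran from -0.05 to 0.12, and those of decapping partners from -0.09 to 0.07, with single genes spread wider.

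The 6 splicing rows give PSI (percent spliced in), the share of junction reads that support a form. LSM8 has 2 pairs of splice sites in its first exons. The junction from 117824308 to 117825708 gives the shorter form and that from 117824334 to 117825701 a form with 26 more bases of exon 1 and 7 more of exon 2. Both windows are shown (GRCh37, plus strand), the capitals marking bases held only by the longer form:

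LSM8 exon 1 donors, chr7:117824299-117824343: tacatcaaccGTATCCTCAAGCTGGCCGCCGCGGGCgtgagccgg

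LSM8 exon 2 acceptors, chr7:117825681-117825717: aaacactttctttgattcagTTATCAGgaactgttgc

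The shorter form had a PSI of 86.0% to 96.2% over the 28 libraries (median 91.4%), and the longer 3.81% to 9.35% (median 6.36%). No member row was called, so those singled out were chosen after their values were seen. The widest LSM8 difference was at day 12, where the shorter form was at 89.9%, 90.6% and 92.3% with shNT and at 88.9%, 86.0% and 87.0% with hairpin 64, a difference of -3.64 ± 1.05 points (SE, limma adjusted p = 0.33). The next intron of LSM8, from 117825748 to 117828332, had 94.4% to 100% of its reads on the spliced junction.

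LSM7 has acceptors 4 bases apart, at 2324195 and 2324191 on chromosome 19 (minus strand). The capitals mark the bases that the longer form alone holds:

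LSM7 acceptors, chr19:2324182-2324215: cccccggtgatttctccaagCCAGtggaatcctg

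The longer form had a PSI of 60.6% to 76.3% (median 70.1%), and its differences ran from -2.49 to 1.68 points. LSM1 has a cassette exon between junction ends 38029483 and 38021358 on chromosome 8, read at both of its junctions. Its inclusion was 82.1% to 94.4% at the upstream and 85.0% to 94.1% at the downstream junction. With hairpin 64 in MV4;11, inclusion at the upstream junction was 90.9%, 90.2% and 90.3%, against 92.4%, 93.9% and 92.9% with shNT. The difference of -2.64 ± 0.48 points (SE, limma adjusted p = 0.236) was below the 10 points required of a called event. At day 4 the difference at this junction was wider, -4.39 ± 2.38 points (SE, limma adjusted p = 0.81), with 82.1% in hairpin 64 library 3. Of the 6 rows, 0 were called in any of the 5 comparisons, where 1.73%, 1.28%, 1.64%, 0.866% and 2.34% of all events were (hairpin 64 at day 4, hairpin 65 in MOLM13, hairpin 64 and then 65 in MV4;11, and day 12). LSM2 to LSM6 have no rows of their own, so the splicing of LSM5 was not analysed here.

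**Figure D4:**
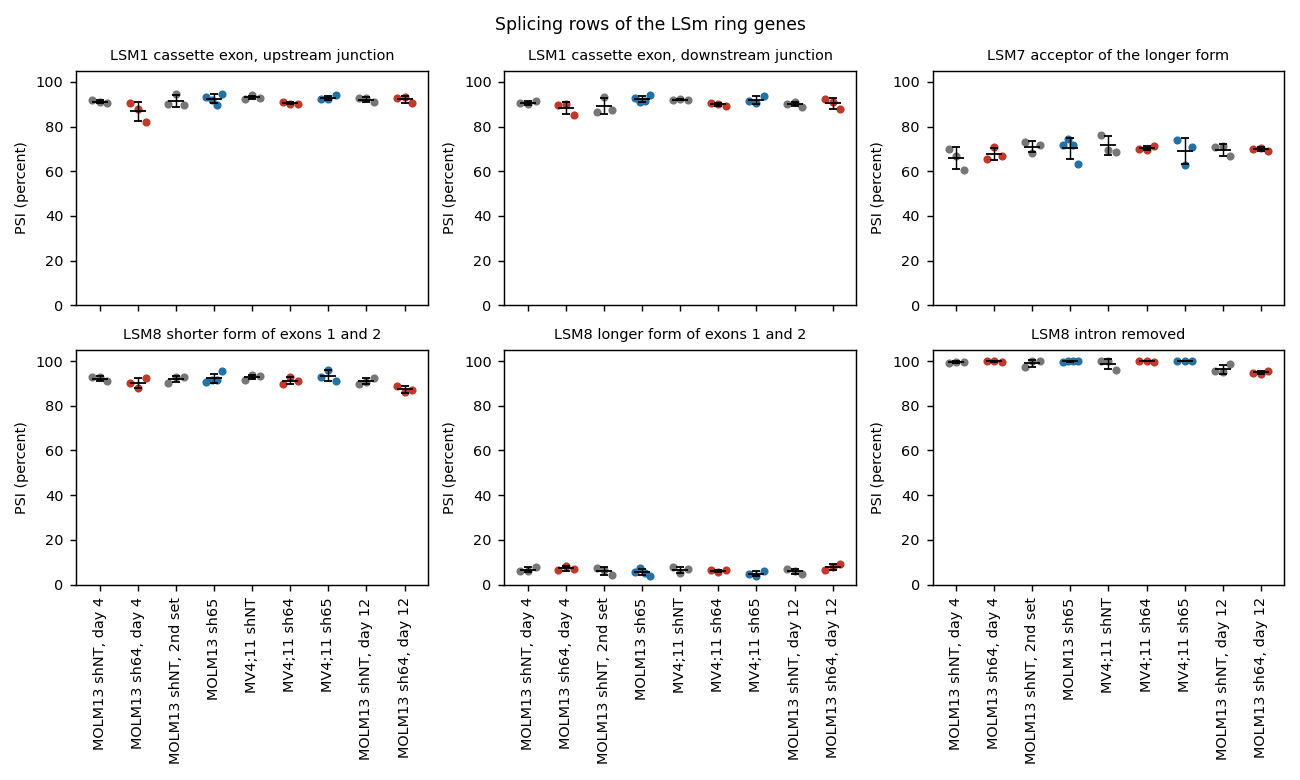
PSI in percent of the 6 splicing rows of LSM1, LSM7 and LSM8 in 28 libraries; points are libraries, bars the group mean and SD, grey shNT, red hairpin 64 and blue hairpin 65. The longer LSM8 form stays under 10% and the shorter over 80% in every library, and the groups lie close together.

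Because the nuclear ring serves U6, intron inclusion was set beside LSM5. The mean over 11558 introns measured in all 28 libraries was 5.254%, 5.56% and 6.52% with shNT at day 4. With hairpin 64 it was 7.79%, 6.86% and 8.55%, higher by 1.95 points (exact two-sided permutation p = 0.1, the smallest possible). At day 12 it was 6.28%, 6.56% and 6.67% with shNT and 8.02%, 7.38% and 7.45% with hairpin 64, higher by 1.11 points (exact permutation p = 0.1). With hairpin 65 in MOLM13 it was 5.33%, 5.16%, 6.70% and 6.87% against 3.93%, 3.98% and 3.69%, a difference of 2.15 points (exact permutation p = 0.0286, the smallest possible, and 0.143 adjusted over 5 comparisons). The shNT sets of MOLM13 differed among themselves by about as much, with means of 5.78% ± 0.659 at day 4, 3.86% ± 0.155 in the second set and 6.502% ± 0.204 at day 12 (SD, n = 3). The mean with hairpin 65 was 6.01% ± 0.893 (SD, n = 4), a mean within the range of the shNT libraries of the other MOLM13 sets. Its own controls are the second set, and the part of hairpin or set in the difference was not tested.

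In MV4;11 the groups overlapped. shNT libraries were at 4.58%, 3.67% and 4.87%, those with hairpin 64 at 5.66%, 5.36% and 4.86% and those with hairpin 65 at 4.24%, 6.23% and 5.16%. Differences from shNT were 0.919 points for hairpin 64 (exact permutation p = 0.2) and 0.838 points for hairpin 65 (exact permutation p = 0.4). The hairpins differed by 0.0817 points (exact permutation p = 0.9), while LSM5 stood at 4.71 ± 0.182 RPKM with hairpin 64 and 11.5 ± 0.984 RPKM with hairpin 65. The part of LSM5, LSM2 or MBNL1 in intron inclusion was not tested.

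**Figure D5:**
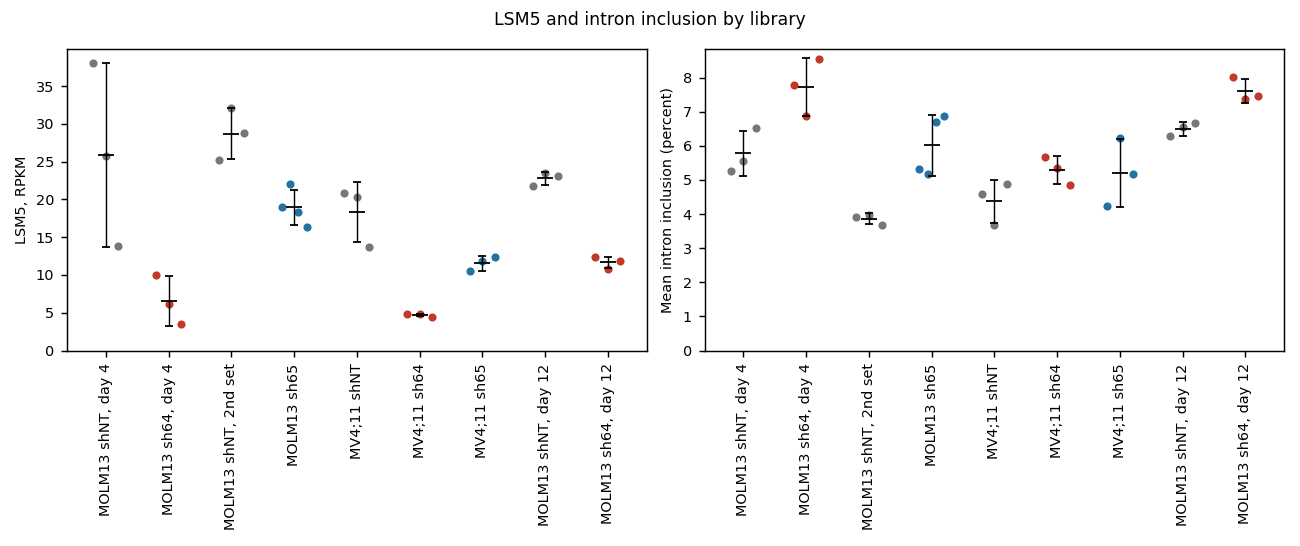
LSM5 in RPKM (left) and mean inclusion of 11558 introns in percent (right) in 28 libraries, with group mean and SD; grey shNT, red hairpin 64 and blue hairpin 65. Intron inclusion lies above the shNT libraries of the same set in all knockdown libraries of MOLM13 and overlaps shNT in MV4;11, while the MOLM13 shNT sets themselves lie apart.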

How the data were processed

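The authors aligned reads with STAR to hg19 (GRCh37) and deposited gene levels as RPKM, made with AltAnalyze. They deposited splicing as PSI, a fraction of junction reads, from MultiPath-PSI. No counts were used, so depth is known only in relative terms. The members and gene lists were chosen with earlier results of these data known. LSM8, listed as NAA38 in the splicing file, was matched by identifier.

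For each comparison, limma 3.58.1 (R 4.3.3) was fitted to log2(RPKM + 1) of all genes with a mean of 1 RPKM or more in one of the groups. Calls needed 1.5-fold and passed a threshold of 0.01 on the value before adjustment. Adjusted values are Benjamini-Hochberg values over all genes or events. This scale understates changes of low genes. PSI rows measured in more than 50% of each group needed the same threshold and 10 points. Intron inclusion used the 23066 rows whose examined junction is the exon-intron boundary. Single values were tested by exact permutation (scipy 1.17.1).

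Named beside the members were MBNL1, the coding genes on each side of LSM5, the 5 genes most like it, and up to 2 called genes per list and comparison with the smallest p. GEMIN5 is named from the contrast of the hairpins. At day 4, deviations of same-numbered libraries correlated (r = 0.857, 0.811 and 0.891), so the numbers were treated as pairs. Scripts were tried on simulated data. Alternatives were the pseudocount, filter, centring, block, PSI threshold and leaving out libraries. Chosen after seeing the data were intron rows of both orientations and leaving out replicate 3 of both day 4 groups.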

Additional observations from a re-analysis of the deposited data

Results flagged for a closer look

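In MV4;11, LSM2 and GEMIN5 passed the direct test of hairpin 64 against hairpin 65. LSM2 was lower with hairpin 64, with a log2 difference of -0.69. GEMIN5 of the SMN complex differed in the same direction, by -0.62. Among 9 measures in the group of 4 libraries (hairpin 65 in MOLM13), no library stood apart from the others by Dixon's test.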

How the results depend on the processing

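LSM2 and LSM5 kept their direction in the settings tried in all 5 comparisons, but counts of called genes moved. With a replicate block, genes called were 729 against 249 at day 4, 446 against 224 for the difference of hairpins in MOLM13, 261 against 70 for that of lines and 163 against 42 for that of days. With the block 1 other ring gene, LSM2, was called at day 4 and 1 in the difference of hairpins. In MV4;11 and at day 12 the numbers did not pair the libraries (r from -0.66 to 0.06), and the block gave 796 and 367 genes for hairpins 64 and 65, and 560 at day 12. Without replicate 3 of both groups, day 4 gave 758 genes and 1 ring gene other than LSM5, again LSM2.

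With a pseudocount of 0.1, 583 genes were called for hairpin 65 in MV4;11, 870 at day 12, 632 in the contrast of hairpins in MV4;11 and 64 in that of days. With no filter on low values, the counts were 160 for hairpin 65 in MOLM13 and 343 and 221 for hairpins 64 and 65 in MV4;11. For hairpin 65 in MOLM13, LSM5 and 1 other ring gene, LSM3, were called with that pseudocount, and the same genes with median-centred libraries. A PSI difference over 20 points left 641, 358, 615, 281 and 833 events (day 4, hairpin 65 in MOLM13, hairpins 64 and 65 in MV4;11, day 12), and 0 ring events. The causes were not tested.

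In the same order, leaving out 1 library gave 123 to 373, 157 to 904, 389 to 1953, 256 to 1338 and 530 to 608 genes, the highest MV4;11 counts without shNT library 3. The contrasts gave 336 to 441 (hairpins, MV4;11), 159 to 470 (hairpins, MOLM13), 46 to 477 (lines) and 35 to 118 (days). Other ring genes called numbered 0 to 1, 0 to 2, 1, 0 to 1 and 1, and 0 to 1 for the hairpins in MOLM13. Events numbered 991 to 1232, 705 to 1523, 993 to 1609, 536 to 849 and 1554 to 1655. Intron inclusion with hairpin 65 in MOLM13 differed by 1.86 to 2.43 points, with too few libraries left for an exact permutation p to pass 0.05.

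Of the single genes and events, 1743 values were counted as unchanged, 32 gained and 15 lost a call, and 6 without a test moved. The unchanged values include some of LSM5 given without a test, which were not judged by the threshold. The gained and lost calls leave those values out.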
